A study of Mus musculus with 2 samples.

Results

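Fibroblasts that carried counts of several of the genes Inhba, Sema7a, Ereg, Fosl1, Dio3 and Gpr39 were examined in epididymal fat of mice, among the stromal and vascular cells that are left once adipocytes float off a digest of the tissue. A cell was taken as a fibroblast where Pdgfra was counted, Dcn and Lum together reached 20 per 10000 counts, Cd68, C1qa and C1qb together stayed under 10 per 10000 counts, and fewer than 2 of Cdh5, Kdr and Cldn5 were counted. Of 15374 cells, 3293 met this gate (21.4%). Of these, 129 had counts of at least 3 of the 6 genes (3.92%, 95% exact Clopper-Pearson interval 3.28 to 4.64%). These 129 cells are called activated fibroblasts here, which is a working name, and the 3164 remaining cells of the gate are the other gated fibroblasts. The members were chosen by their counts of the 6 genes in this same table, so every difference between both groups is given as a description, with no test.

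The cells came from a mixture of Mincle-deficient and wild-type mice, all male, on a C57BL/6J background and kept on a high-fat diet for 15 weeks before their fat was taken. Mincle is a C-type lectin receptor encoded by Clec4e, and the labels describe neither the deficient allele nor the age or number of the mice. Cell suspensions received hashtag antibodies, were pooled, and 20000 cells entered a microwell capture system (BD Rhapsody), after which cDNA and hashtags were amplified by TAS-Seq into 1 transcript library and 1 hashtag library. The labels do not say which hashtag marks which genotype, so the genotypes were not compared, and the hashtags A0309, A0310, A0311 and A0312 are shown as separate fractions of the pool and not as replicates of a group. Clec4e had 0 counts in the 129 activated fibroblasts, which allows up to 2.33% of such cells to have a count and sets no limit on how many express it.

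Inhba encodes the subunit of activin A, a ligand of the TGF-beta family that acts through activin receptors and SMAD proteins and is captured by follistatin. In human fat, activin A is known to keep adipose progenitors dividing and to hold back their differentiation. Ereg encodes epiregulin, a ligand of the EGF receptor, whose signal runs through the kinase ERK to transcription factors such as FRA-1, the AP-1 subunit encoded by Fosl1. Sema7a encodes a membrane-anchored semaphorin that binds integrin beta 1 and plexin C1, Dio3 an enzyme that inactivates thyroid hormone, and Gpr39 a receptor that senses zinc. Fibroblasts of fat make most of its collagenous matrix, hold the precursors of new adipocytes and release chemokines and growth factors for macrophages.

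The table held a median of 34182 counts in 4503 genes per cell. Whether reads or molecules were counted is not given in these sources. Activated fibroblasts were the deeper cells, with a median of 53084 counts (15055 to 152850) and 5646 genes, against 35696 counts (7090 to 155141) and 4718 genes in other gated fibroblasts. Mitochondrial genes held a median of 3.82% of the counts in activated fibroblasts and 4.14% in other gated fibroblasts. Hashtag labelling of fibroblasts was thin, with a median of 37 tag counts in activated and 35 in other gated fibroblasts, against 1306 in cells of a macrophage gate. By tag counts alone, 46.5% of activated and 42.8% of other gated fibroblasts had over 25% of their tags from another hashtag, against 4.49% of the macrophage gate. The hashtag of a fibroblast, taken from the name that the authors gave the cell, is therefore a weaker label than that of a macrophage. Values from 1 to 4 are missing for 68 genes of the table, which means that their small counts had been zeroed in the deposited table. The smallest count above 0 ranged from 5 to 68 between these genes, so larger values can be missing as well. Among these 68 genes are Dcn, Lum, Cd68 and C1qa of the gates, and Col3a1, Col4a1, Sparc, Lpl, C3, Mgp, Acta2, Pi16, H2-Ab1, Rgs5 and Car3 of the other genes named here.

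Activated fibroblasts were found with every hashtag. They were 42 of 849 gated fibroblasts with A0309 (4.95%, 3.59 to 6.63%), 28 of 937 with A0310 (2.99%, 1.99 to 4.29%), 38 of 768 with A0311 (4.95%, 3.52 to 6.73%) and 21 of 739 with A0312 (2.84%, 1.77 to 4.31%). The 4 intervals overlap, and they cover counting error only. The 9 fibroblast markers (Pdgfra, Dcn, Lum, Col1a1, Col1a2, Col3a1, Pdgfrb, Cd34 and Thy1) summed to 44237 CPM in activated and 45909 CPM in other gated fibroblasts, where CPM is the counts summed over the cells of a group per 1000000 of all their counts. Pdgfra, Dcn and Lum also set the gate, and none of the 9 was called by the rule of size given further on.

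Inhba, the activin subunit, had 144, 148, 76.9 and 293 CPM in activated fibroblasts with A0309, A0310, A0311 and A0312, against 10.1, 7.58, 10.2 and 9.15 CPM in other gated fibroblasts. The level was highest with A0312 and lowest with A0311, and the groups did not overlap. Over all cells it was 145 CPM (95% exact Poisson interval 136 to 154) in activated and 9.19 CPM (8.66 to 9.75) in other gated fibroblasts, a log2 ratio of CPM plus 1 of 3.84. The gene lies on chromosome 13 (16011851 to 16031621, plus strand, GRCm38).

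Ereg (chromosome 5, 91074622 to 91093646, plus strand), the EGF receptor ligand, had 101, 99.4, 215 and 141 CPM in activated fibroblasts of the 4 hashtags in the same order, against 11.8, 12.6, 6.56 and 16.0 CPM in other gated fibroblasts. A single cell held 335 of the Ereg counts of activated fibroblasts, or 31.2% of them, and without it the level was 98.7 CPM in place of 142 CPM. Sema7a (chromosome 9, 57940112 to 57962865, plus strand), the integrin-binding semaphorin, was the most even of the 6 across hashtags in activated fibroblasts. It had 84.4, 103, 96.6 and 112 CPM in activated and 4.77, 4.83, 9.51 and 6.85 CPM in other gated fibroblasts.

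Dio3, the thyroid hormone-inactivating deiodinase on chromosome 12 (110279068 to 110281097, plus strand), had the largest ratio of the 6, with a log2 of 4.08. It had 83.2, 52.3, 69.4 and 73.1 CPM in activated and 4.37, 2.11, 4.22 and 2.19 CPM in other gated fibroblasts. Fosl1 (chromosome 19, 5447547 to 5455946, plus strand), the AP-1 subunit, had 42.2, 38.9, 27.2 and 49.6 CPM in activated and 7.24, 2.86, 3.33 and 3.4 CPM in other gated fibroblasts. Gpr39 (chromosome 1, 125676995 to 125873862, plus strand), the zinc receptor, had 56.1, 47.1, 69.0 and 91.8 CPM in activated and 14.6, 12, 16.9 and 10.2 CPM in other gated fibroblasts. Its log2 ratio of 2.15 was the smallest of the 6. For none of the 6 genes did the hashtag values of the 2 groups overlap. The rule chose the cells by these genes, so this is a description.

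**Figure D1:**
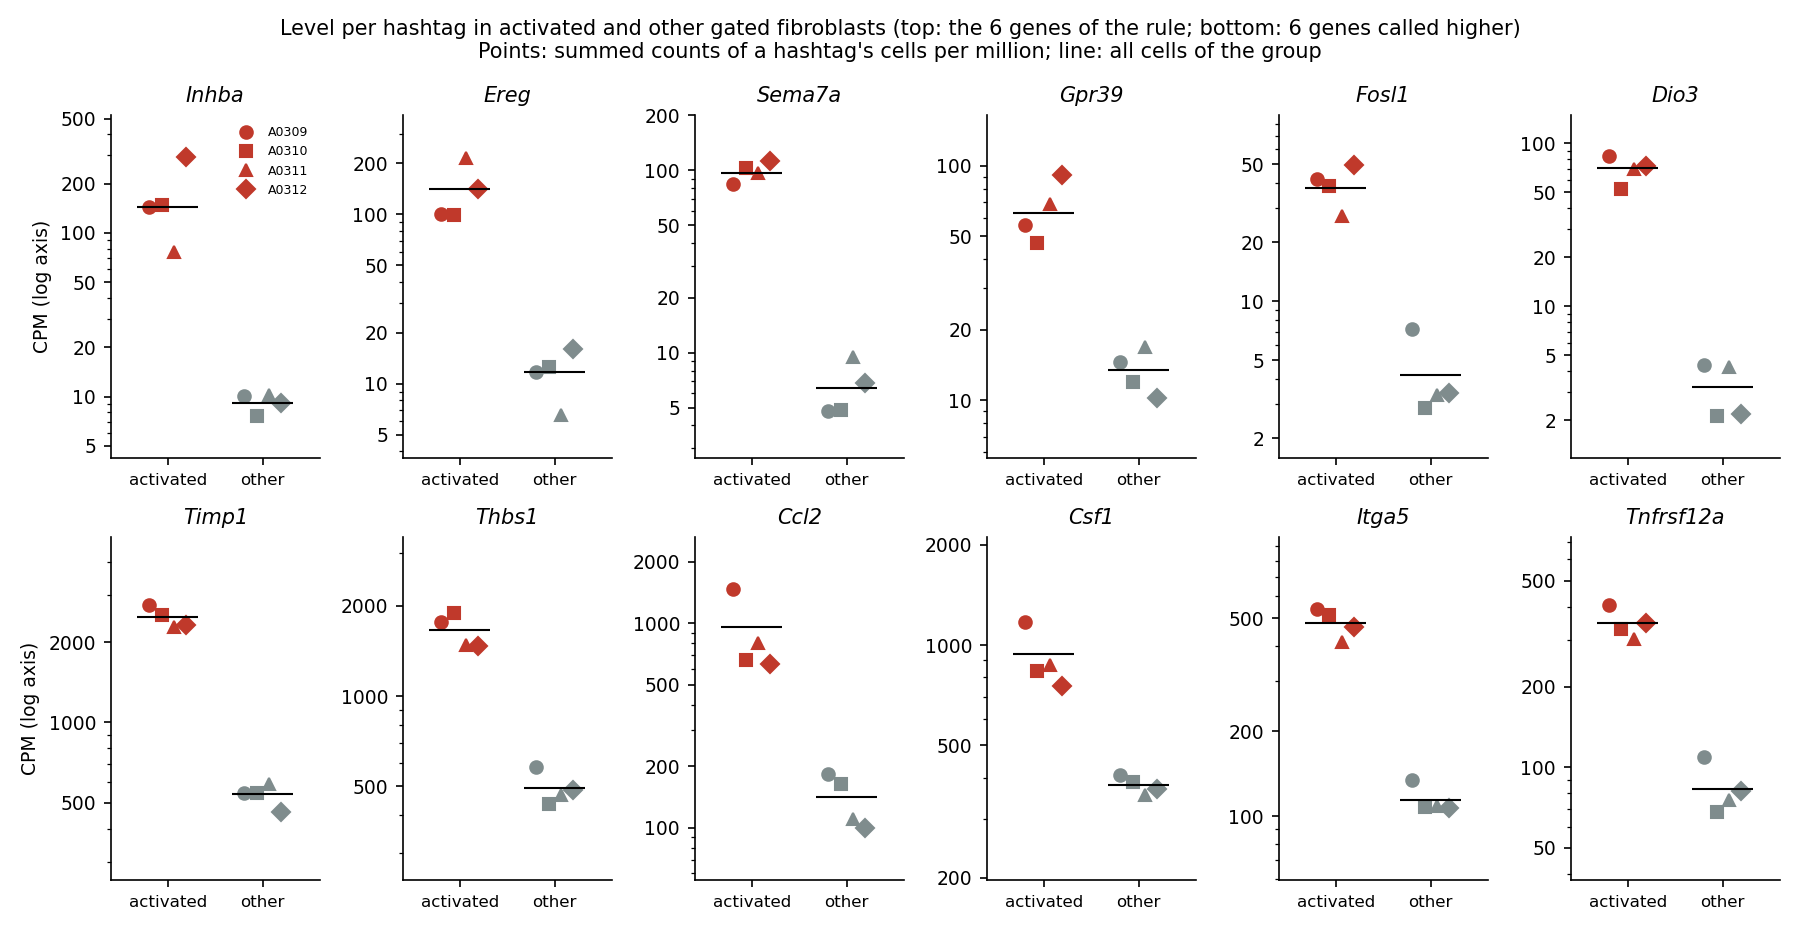
Level in CPM (log axes) of the 6 genes of the rule (top) and of 6 genes called higher (bottom), with activated fibroblasts in red left of other gated fibroblasts in grey. Each point is a hashtag of the pool and each line all cells of the group. In all 12 panels the 4 red points lie above the 4 grey points. They span 76.9 to 293 CPM against 7.58 to 10.2 CPM for Inhba and 2273 to 2759.8 CPM against 461 to 589.9 CPM for Timp1. The top genes set the groups and the bottom genes were called for being higher in every hashtag, so the separation is a description.

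Exons of 3 of these genes overlap exons of another gene on the opposite strand in the GENCODE vM21 annotation, and the sources here do not say whether the counting used strand. Gpr39 overlaps Lypd1, Ereg overlaps Gm19610 and Fosl1 overlaps Ccdc85b. Lypd1 itself had 23.3 CPM in activated and 22.4 CPM in other gated fibroblasts. Dio3os, transcribed away from Dio3 on the other strand, had 17.4 CPM in activated and 5.30 CPM in other gated fibroblasts, with a log2 ratio of 0.06 to 2.64 between hashtags.

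The activated fibroblasts differed in which of the 6 genes they carried. Inhba was counted in 72.1% of them, Gpr39 in 67.4%, Ereg in 62.0%, Sema7a in 58.1%, Fosl1 in 55.0% and Dio3 in 45%. No gene was present in every member. The pair found together most often was Inhba with Gpr39, in 63 cells (48.8%), followed by Inhba with Ereg in 59 cells (45.7%). Fosl1 with Dio3 was the rarest, in 25 cells (19.4%). Of the 129 cells, 80 had exactly 3 of the genes, 26 had 4, 18 had 5 and 5 had all 6.

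Membership followed a graded scale with no gap at the threshold. Among all gated fibroblasts, 1975 had none of the 6 genes, 923 had 1 and 266 had 2. The cells just outside the threshold, with 2 genes, had a median of 6 counts summed over the 6 genes and of 46781 counts in all. Those just inside, with 3 genes, had 13 and 49477. The 49 cells with 4 to 6 genes had a median of 56095 counts in all, and those with 0 genes 32714, so depth moved with membership.

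To take depth out of the shares, each cell was thinned to 10000 counts, which left out 0 activated and 55 other gated fibroblasts. For genes whose small counts had been zeroed, depth can remain in the thinned shares, since the zeroing came before. Inhba was then counted in 43.4% of activated and 5.37% of other gated fibroblasts, against 72.1% and 12% without thinning. Gpr39 was counted in 38.8% and 7.62%, and Dio3 in 26.4% and 1.61%. In unthinned cells of the macrophage gate, at a median of 39740.0 counts, Inhba was counted in 5.83%, Sema7a in 2.88%, Fosl1 in 2.35%, Ereg in 0.812%, Gpr39 in 0.288% and Dio3 in 0.249%. The rule fixed the shares in activated fibroblasts, so the macrophage shares are given as the background level only.

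Each gene could also be read in cells that the remaining 5 genes chose. Of 78 gated fibroblasts with at least 3 of the 5 genes other than Inhba, 53.8% had a count of Inhba, at 145 CPM, against 12.6% and 9.74 CPM in cells with fewer than 2 of the 5. For Dio3 the shares were 26.8% of 97 such cells and 3.0% of cells with fewer than 2, and for Gpr39 49.4% of 83 cells and 14.9%. Sema7a, Ereg and Fosl1 were counted in 42.6%, 44.9% and 37.6% of the cells that the other 5 genes chose. These cells are deeper as well, and all of them are activated fibroblasts by the rule, so the shares are a description. Cells with exactly 2 of the other 5 genes were in neither group. With at least 2 of the other 5 needed, the shares were 34.6% of 269 cells for Inhba, 16.0% of 362 for Dio3 and 35.4% of 246 for Gpr39.

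Outside the 6 genes, a fixed rule of size was used because the pool has 1 transcript library. A gene was called where the log2 ratio of CPM plus 1 was at least 1 in size, with 1 sign, in the pool and in each of the 4 hashtags, and where it reached 5 CPM in either group. Of 11431 genes that reached this minimum, 79 were called higher (0.691%) and 81 lower (0.709%) in activated fibroblasts, or 160 in either direction (1.40%), with the 6 genes of the rule left out. The rule used this contrast, so nothing is read from these shares. The median log2 ratio of all of them was -0.03. Before the condition on hashtags, 274 genes had a ratio of at least 1 and 400 of at most -1. Without the cells of A0309, A0310, A0311 or A0312 in turn, and so without that hashtag's condition, 150, 158, 146 and 119 genes were called lower. Depth moved with the groups, and among cells of 20000 to 60000 counts 77 of the 79 and all 81 genes kept a ratio of at least 1 in size in the pool, but 51 of the 79 and 40 of the 81 were still called. Of the genes tested, 13.0% had all 4 hashtag values of activated fibroblasts above those of other gated fibroblasts, and 15.4% had all 4 below.

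**Figure D2:**
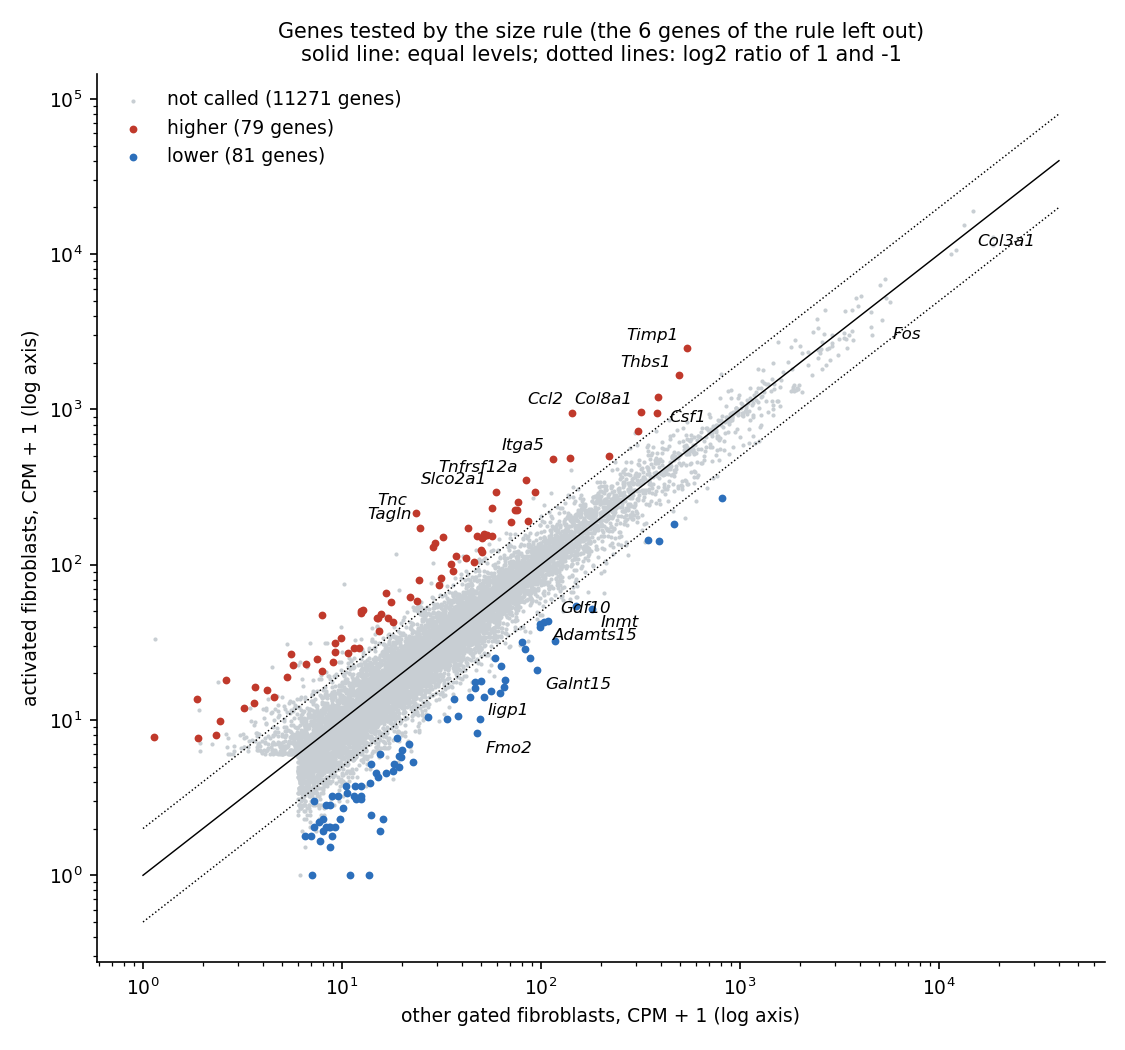
Level of each tested gene in activated fibroblasts (vertical) and other gated fibroblasts (horizontal), in CPM plus 1 on log axes; the 6 genes of the rule are left out. Red points are the 79 genes called higher and blue points the 81 called lower; grey points beyond a dotted line passed the size in the pool but not in every hashtag.

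Among secreted signals, the macrophage growth factor Csf1 and the monocyte chemokine Ccl2 were higher in activated fibroblasts. Ccl2 had 1468, 659.8, 799.7 and 633 CPM in activated fibroblasts with A0309, A0310, A0311 and A0312, against 183, 163, 111 and 100 CPM in other gated fibroblasts, a log2 ratio of 2.74 in the pool. Csf1 had 1175, 838, 870.0 and 752 CPM in activated and 406, 387, 354 and 369 CPM in other gated fibroblasts, a log2 ratio of 1.31. Both were highest with A0309, and the groups did not overlap. Of 20 cytokine and chemokine genes tested, these 2 were called higher and 0 lower. Over all genes tested, 0.691% were called higher and 0.709% lower, and these shares stand beside each list count that follows. The chemokine Ccl11, the uncalled member of the list with most counts, had 543 CPM in activated and 663 CPM in other gated fibroblasts. Il6 had 207 CPM in activated and 289.6 CPM in other gated fibroblasts and was not called.

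Receptors for products of the 6 genes were counted in the same group. Egfr, the receptor for epiregulin, had 249 CPM in activated and 241 CPM in other gated fibroblasts, and Acvr2a, a receptor for activin, had 51.5 and 68.9 CPM in these groups. Fst, which encodes the activin-binding follistatin, ranged over hashtags from 168 to 366 CPM in activated and from 180.1 to 222 CPM in other gated fibroblasts. These ranges overlap. None of 22 activin and TGF-beta genes tested was called, and their median log2 ratio was 0.03. Smad3, which transmits activin signals, had a log2 ratio of 1.15 in the pool (105 against 46.9 CPM) and of 0.96 in 1 hashtag, just under the size needed. Tgfbr2, a TGF-beta receptor, had 331 CPM in activated and 457 CPM in other gated fibroblasts.

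None of 16 EGF family and ERK feedback genes was called, although 15 had a ratio above 0 and the list's median log2 ratio was 0.60, against -0.03 over all genes. Spred1, an inhibitor of the Ras and ERK pathway, had 317 CPM in activated and 143 CPM in other gated fibroblasts, and Dusp5, a phosphatase for nuclear ERK, had 104 and 37.5 CPM. The log2 ratios of these 2 genes were at least 0.86 in each hashtag. Errfi1, a feedback inhibitor of the EGF receptor, had 752, 678, 577 and 756 CPM in activated and 438, 475, 426 and 493 CPM in other gated fibroblasts. Its hashtag values did not overlap, with a log2 ratio of 0.57. Of all genes tested, 13.0% had hashtag values that lay apart in this direction.

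Other genes of the AP-1 family did not pass the size. None of 9 other AP-1 genes was called, and 7 had a ratio under 0, with a list median of -0.46. Fos, the most abundant of them by counts, had 3282, 4117, 3572 and 4607 CPM in activated and 4860.0, 5384, 4993 and 5372 CPM in other gated fibroblasts. The ranges did not overlap, as for 15.4% of all genes tested in this direction, and the log2 ratio was -0.46. Atf3, a stress-induced partner of the family, had 609 CPM in activated and 1181 CPM in other gated fibroblasts. Of 19 immediate early and heat-shock genes, which tissue digestion can induce, only Egr3 was called, with 148 CPM in activated and 49.6 CPM in other gated fibroblasts (log2 ratio 1.56). Egr1 had 1673 CPM in activated and 2298 CPM in other gated fibroblasts, and the list's median was -0.03.

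Timp1, an inhibitor of matrix metalloproteases, was among the genes with the largest ratios. It had 2759.8, 2527, 2273 and 2327 CPM in activated and 546, 545, 589.9 and 461 CPM in other gated fibroblasts, a log2 ratio of 2.21. Timp1 was counted in 100% of activated fibroblasts and 85.1% of other gated fibroblasts, and in 97.7% and 73.5% after thinning. Timp2, its relative, had 3386 CPM in activated and 4562 CPM in other gated fibroblasts and was not called. Of 23 protease and inhibitor genes, 3 were higher and 1 lower. Plaur, the urokinase receptor, was the other higher member named here, with 64.6 CPM in activated and 15.6 CPM in other gated fibroblasts. Adamts15, a metalloprotease that cleaves proteoglycans, was the lower member, with 38.7 CPM in activated and 98.2 CPM in other gated fibroblasts.

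Matrix and contractile genes split by gene. Thbs1, which encodes the matricellular protein thrombospondin, had 1763, 1885, 1481 and 1469 CPM in activated and 582, 438, 467 and 486 CPM in other gated fibroblasts, a log2 ratio of 1.75. Tnc, which encodes tenascin C, had 192, 113, 386 and 30.0 CPM in activated and 20.4, 18.5, 36.8 and 14.2 CPM in other gated fibroblasts. Its ratio was carried by 3 hashtags, since the log2 ratio of 3.19 in the pool was 1.02 with A0312, where the level in activated fibroblasts lay below that of other gated fibroblasts with A0311. Tagln, which encodes an actin-binding protein of contractile cells, had 119, 140.1, 266 and 129 CPM in activated and 32.2, 15.0, 31.7 and 16.1 CPM in other gated fibroblasts. Exons of Thbs1, Tnc and Tagln each overlap a gene on the other strand (Gm29233, 8030451A03Rik, and Gm48529 with Pcsk7).

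Those 3 genes were the called members among 19 matrix glycoprotein and contractile genes, with 0 lower and a list median of 0.55. Sparc, a collagen-binding matrix protein and the uncalled gene of the list with most counts, had 18909.9 CPM in activated and 14756 CPM in other gated fibroblasts. Acta2, the actin isoform that marks myofibroblasts, was not called. It was counted in 11.6% of activated and 2.97% of other gated fibroblasts, 1 cell held 46.5% of its counts, and its log2 ratio ranged from -1.23 to 4.22 between hashtags. Of 26 collagen and crosslinking genes, Col8a1 alone was called, with 955 CPM in activated and 317 CPM in other gated fibroblasts (log2 ratio 1.59). The list's median was 0.37, and 24 of the 26 had a ratio above 0. Col3a1 had 15488 CPM in activated and 13406 CPM in other gated fibroblasts. Lox, a collagen crosslinking enzyme, had 587 and 301 CPM in these groups, with a log2 ratio of 0.85 to 1.02 between hashtags.

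The surface receptors Itga5 and Tnfrsf12a were higher in activated fibroblasts with every hashtag. Itga5, the alpha chain of the fibronectin receptor, had 539, 512, 411 and 466 CPM in activated and 134, 108, 109 and 107 CPM in other gated fibroblasts. Tnfrsf12a, the receptor for the cytokine TWEAK, had 405, 330.2, 303 and 348 CPM in activated and 109, 68.1, 75.4 and 81.9 CPM in other gated fibroblasts. Both genes were even across hashtags, with log2 ratios of 1.91 to 2.24 and 1.89 to 2.26. Itgb1, the beta chain that pairs with Itga5 and also binds Sema7a, had 618 CPM in activated and 492 CPM in other gated fibroblasts and was not called. Itga5 was the called member among 16 semaphorin, plexin and integrin genes.

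Further membrane proteins called higher were a transporter and a receptor. Slco2a1, a prostaglandin transporter, had 266, 305, 299 and 306 CPM in activated and 65.8, 61.5, 50.7 and 53 CPM in other gated fibroblasts. F2rl1, a receptor that proteases activate, had 25.6 CPM in activated and 4.57 CPM in other gated fibroblasts. None of 12 prostaglandin and hyaluronan genes was called, although Slco2a1, which was not on that list, was higher. Tnfaip6, which encodes a hyaluronan-binding protein, had 554 CPM in activated and 577 CPM in other gated fibroblasts. Ptgs2, the inducible cyclooxygenase, had 53.9 CPM in activated and 55.0 CPM in other gated fibroblasts. Exons of Slco2a1 overlap n-R5s89 on the other strand.

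Inside the cell, the chromatin protein Hmga1, the actin-oxidizing enzyme Mical2 and the transcription cofactor Lbh were higher. Hmga1 had 137 CPM in activated and 28.2 CPM in other gated fibroblasts, Mical2 149 and 31.2 CPM, and Lbh 129 and 27.8 CPM. Their log2 ratios lay between 1.97 and 2.66 in every hashtag. Hmga1 is uncertain, since it overlaps AI413582 and Gm49774 on the other strand and the near-identical Hmga1b was called as well. Srxn1, an antioxidant enzyme that repairs oxidized peroxiredoxins, had 119, 224, 96.6 and 249 CPM in activated and 53.4, 59.1, 47.7 and 46.7 CPM in other gated fibroblasts. With A0311 its log2 ratio was 1.00, at the size needed. It was the called member among 14 stress, p53 and senescence genes, and Hspa5, a chaperone of the endoplasmic reticulum, had 1515 and 1281 CPM.

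Promoters of called genes were searched for TGANTCA, the letters bound by AP-1 proteins, in the 250 bases before the RefSeq start site (GRCm38.p6). The motif reads the same on both strands. Of 32851 promoter windows of all genes, 6.75% held it, as did 4.67% of the windows of tested genes, 8 of 74 windows of genes called higher (10.8%) and 3 of 70 of genes called lower (4.29%). Windows were found for 4 of the 6 genes of the rule, and of these Gpr39 held the motif while Inhba, Sema7a and Dio3 did not. The 3 windows printed here belong to a gene of the rule and to 2 of the called genes named above, and are shown because they hold the motif. Galnt15, called lower, and the uncalled genes Hspa5, Mt2 and Tnfaip6 held it as well. The 3 printed windows run 5′ to 3′ on the plus strand, with the motif in capitals, and end 1 base before the start site: Gpr39 is chr1:125676746-125676995, Plaur chr7:24462233-24462482 and Srxn1 chr2:152105274-152105523.
Gpr39: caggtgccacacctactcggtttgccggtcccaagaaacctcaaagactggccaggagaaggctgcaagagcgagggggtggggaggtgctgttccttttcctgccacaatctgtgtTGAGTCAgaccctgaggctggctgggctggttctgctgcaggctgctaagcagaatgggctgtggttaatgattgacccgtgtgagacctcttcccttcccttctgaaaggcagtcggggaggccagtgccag
Plaur: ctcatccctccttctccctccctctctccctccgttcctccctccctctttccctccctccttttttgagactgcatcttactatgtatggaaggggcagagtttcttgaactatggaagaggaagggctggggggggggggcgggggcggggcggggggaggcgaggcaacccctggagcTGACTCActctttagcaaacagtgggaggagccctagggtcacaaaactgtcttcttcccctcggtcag
Srxn1: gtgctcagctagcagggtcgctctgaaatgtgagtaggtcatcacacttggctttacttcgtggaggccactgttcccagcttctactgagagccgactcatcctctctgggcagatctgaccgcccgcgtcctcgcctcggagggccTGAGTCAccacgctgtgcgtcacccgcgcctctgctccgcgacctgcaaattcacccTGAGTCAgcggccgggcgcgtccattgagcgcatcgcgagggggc
The motif begins 133 bases before the start of Gpr39, 69 bases before that of Plaur, and 102 and 45 bases before that of Srxn1. In Plaur and Srxn1 a match overlaps the letters TGANNNNGC, searched on both strands, which include the antioxidant response element core. The same holds for the uncalled genes Hspa5 and Mt2. A match describes these letters and shows no binding.

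The 81 genes lower in activated fibroblasts were of varied function. G0s2, an inhibitor of the fat-splitting enzyme ATGL, had 6.75, 18.6, 25.1 and 7.49 CPM in activated and 60.0, 67.1, 61.3 and 69.8 CPM in other gated fibroblasts. Galnt15, a glycosyltransferase, had 11, 33.1, 17.1 and 24.4 CPM in activated and 85.4, 92.3, 100.2 and 101 CPM in other gated fibroblasts. Their log2 ratios were -2.0 and -2.19 and the groups did not overlap. Fmo2, a flavin monooxygenase, had 7.29 CPM in activated and 46.9 CPM in other gated fibroblasts and was listed at 0 in the 21 activated cells with A0312. Iigp1, a GTPase induced by interferon, had 9.14 CPM in activated and 48.1 CPM in other gated fibroblasts, with log2 ratios of -2.40 to -2.04 between hashtags.

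Inmt, an enzyme that methylates indoles, had 51.1 CPM in activated and 179 CPM in other gated fibroblasts, and Gdf10, a ligand of the TGF-beta family, had 42.4 and 107 CPM. The peptide hormone gene Nmb, the transporter genes Slco2b1 and Slc10a6 and Pik3ip1, an inhibitor of PI3 kinase, had between 13.1 and 17.0 CPM in activated and between 50.7 and 64.9 CPM in other gated fibroblasts. The lower genes named here are of modest abundance, and 1 cell held 30.9% of the Fmo2 counts, 23.6% of the Nmb counts and 23.2% of the Iigp1 counts of activated fibroblasts. Slco2b1 and Pik3ip1 overlap genes on the other strand.

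None of 10 thyroid hormone and zinc genes tested was called beside Dio3. Thra, a thyroid hormone receptor, had 104 CPM in activated and 162 CPM in other gated fibroblasts and was not called. Among zinc genes, Mt2, a metallothionein, had 3512, 3204, 3107 and 3737 CPM in activated and 2360.0, 2644, 2315 and 2463 CPM in other gated fibroblasts. These values did not overlap, as for 13.0% of all genes tested in this direction, and the log2 ratio was 0.45. Mt1, its neighbour in function, had 2448 and 2542 CPM.

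Overlap with 4 fibroblast states was read from 3 marker genes of each, taken from earlier results of these data. At least 2 of the preadipocyte genes Tnc, Cxcl14 and Col15a1 were counted in 62.0% of activated and 31.8% of other gated fibroblasts, and after thinning in 53.5% and 25%. Tnc and Cxcl14 were themselves called higher on this contrast, so these shares are a description and give the cells no identity. At least 2 of the progenitor genes Dpp4, Sema3c and Pi16 were counted in 41.9% and 38.1%, and after thinning in 28.7% and 31.4%. For the inflammatory genes Agt, Rgs16 and Hp the thinned shares were 6.2% of activated and 15.2% of other gated fibroblasts, and for F3, Clec11a and Chrdl1 they were 17.8% and 16.1%. Each state was read on its own, and no cell was assigned to a single state.

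Gene lists of these states gave few calls. Of 9 preadipocyte genes tested, Tnc and Cxcl14, a chemokine, were higher. That list had a median log2 ratio of 0.35, with 6 genes above 0 and 3 below. Cxcl14 had 487, 488, 562 and 294 CPM in activated and 119, 146, 155 and 129 CPM in other gated fibroblasts. Col4a1, the uncalled gene of that list with most counts, had 3129.7 and 2321 CPM. None of 9 progenitor genes was called, at a median log2 ratio of -0.61, and Cd248 had 852 CPM in activated and 910.3 CPM in other gated fibroblasts. Of 9 genes of the Agt state only Ccl2 was called, against a list median of -0.60, and C3 had 3036 and 4605 CPM. Of 9 genes of the F3 state, Fmo2 and Gdf10 were lower, and Mgp had 5200.2 and 5431 CPM.

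None of 16 adipogenesis genes tested was called, with 11 under 0 and a median of -0.30. Lpl, lipoprotein lipase, had 2096 CPM in activated and 2824 CPM in other gated fibroblasts, and Cebpd, an early adipogenic transcription factor, had 372 and 762 CPM, both uncalled. All 11 cell cycle genes tested had a ratio above 0 with a median of 0.74, but none was called. For Mki67, a marker of dividing cells, 1 cell held 39.1% of the counts of activated fibroblasts, and the log2 ratio ranged from -3.39 to 3.05 between hashtags. Pcna, which encodes the sliding clamp of DNA replication, had 79.2 and 67.0 CPM. None of 15 glycolysis and hypoxia genes was called, and Gapdh had 489 and 375 CPM. None of 9 genes of IL-6 family reception was called, and Socs3, its feedback inhibitor, had 677 CPM in activated and 1154 CPM in other gated fibroblasts.

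Over the 20 lists together, 284 distinct genes were tested, of which 13 were higher (4.58%) and 3 lower (1.06%), against 0.691% and 0.709% of all genes. The lists were written with earlier results of these data known, so the shares are no independent evidence.

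**Figure D3:**
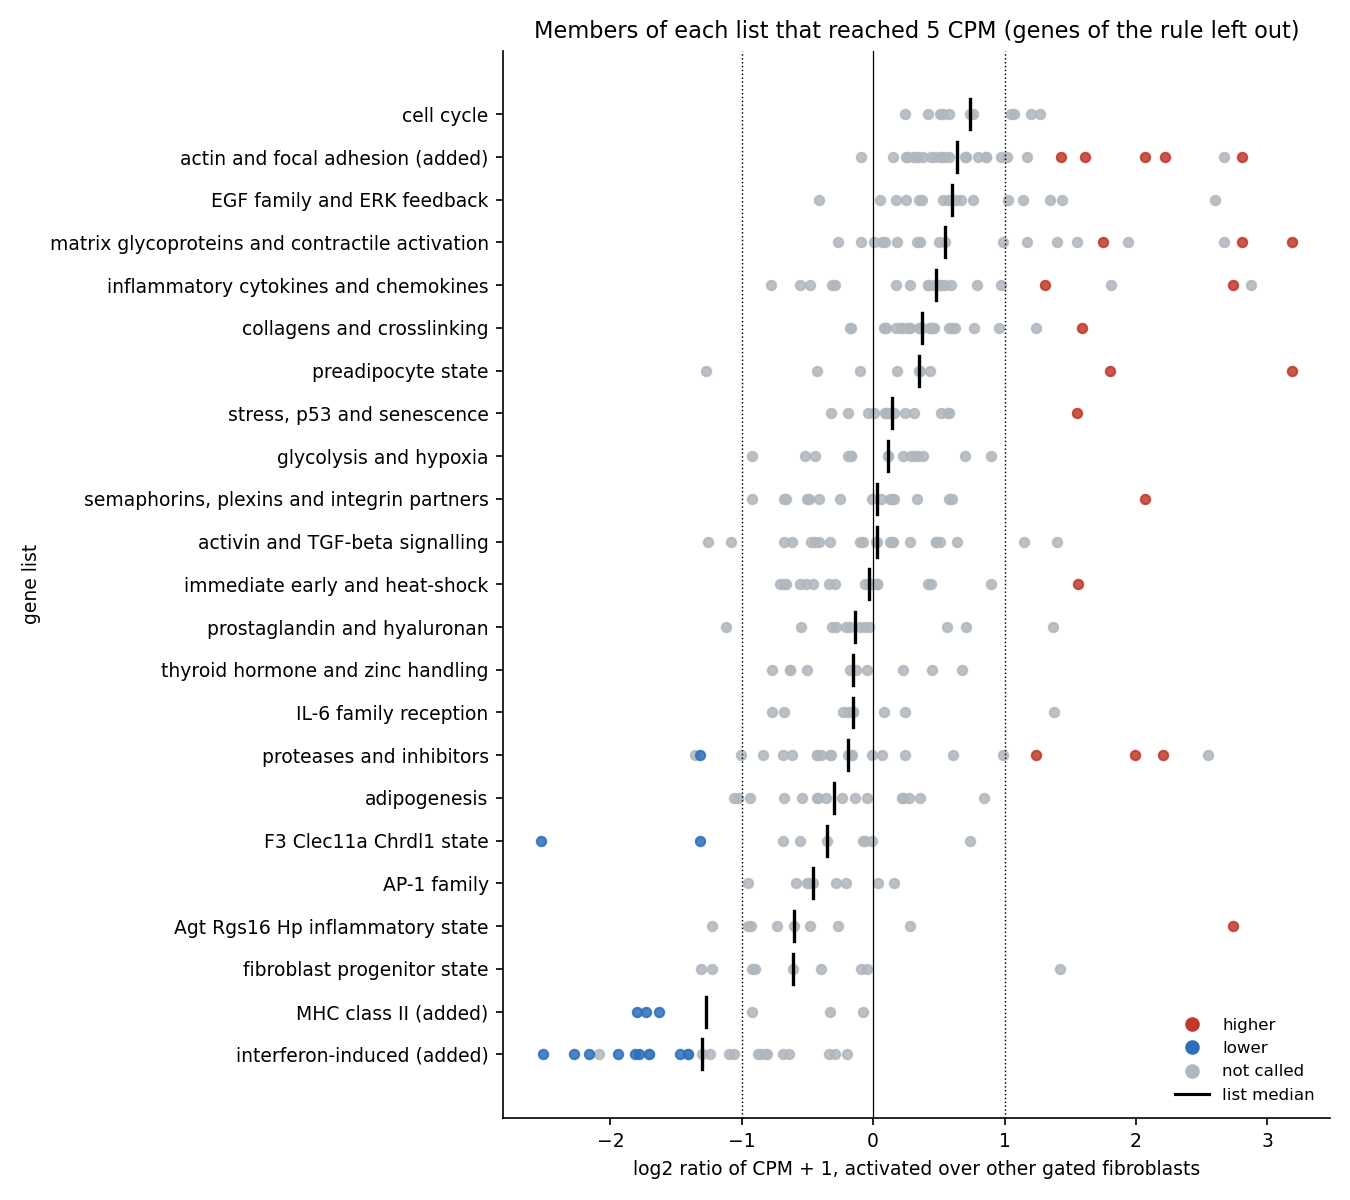
Log2 ratio of CPM plus 1, activated over other gated fibroblasts, of each list's genes that reached 5 CPM, with a black bar at the list's median and dotted lines at -1 and 1. Red points were called higher and blue points lower; the AP-1 list without Fosl1 has its median at -0.46 and the EGF family and ERK feedback list without Ereg at 0.60.

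Markers of other cell types were summed in both fibroblast groups. The 12 macrophage markers summed to 219 CPM in activated (126 to 326 between hashtags) and 215 CPM in other gated fibroblasts (195 to 243). The 8 endothelial markers summed to 65.8 CPM in activated (46.5 to 79.4) and 52.9 CPM in other gated fibroblasts (51.0 to 55.6). Mural markers summed to 84.3 CPM (72.1 to 92.0) and 80.0 CPM (71.5 to 90.4), and Rgs5, a defining pericyte gene, had 0 counts in activated fibroblasts and 12.6 CPM in other gated fibroblasts. Of 9 mesothelial markers, 8 had 0 counts in activated fibroblasts, and of 7 adipocyte markers Adipoq and Car3 had 0. Monocyte and dendritic markers summed to 74.4 CPM in activated (50.7 to 102) and 164 CPM in other gated fibroblasts (133 to 185), with Flt3 and Cd209a at 0 and with Plac8 and H2-Ab1 called lower. The part of these markers in the calls was not tested. Small counts of Rgs5, Car3 and H2-Ab1 had been zeroed, so 0 counts of Rgs5 or Car3 do not mean absence. After thinning, H2-Ab1 was counted in 3.42, 3.39, 6.44, 6.25 and 4.08% of gated fibroblasts with 0, 1, 2, 3 and 4 to 6 of the 6 genes. S100a9, a neutrophil gene, had 242 counts in 1 activated cell with A0312. Without the cells that had S100a9 counts, 80 genes were called higher and 79 lower.

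The levels of the 6 genes in the other classes of the pool were not used by the rule, while those in both fibroblast groups were fixed by it. Sema7a had 96.4 CPM in activated fibroblasts (84.4 to 112 between hashtags) and 270.5 CPM (245 to 314) in an endothelial gate of 1192 cells with at least 2 of Cdh5, Kdr and Cldn5, so the endothelial level was above that of activated fibroblasts with every hashtag. Its level in the macrophage gate was 2.23 CPM. Dio3 had 70.3 CPM in activated and 3.21 CPM in other gated fibroblasts, 0.0804 CPM in the macrophage gate (7633 cells) and 0 counts in the endothelial gate, for which the floor of 3 counts is 0.138 CPM and the 95% Poisson limit 0.169 CPM. Gpr39 had 63.2 and 13.5 CPM in the 2 fibroblast groups, against 2.43 CPM in the remaining cells, 0.734 CPM in the endothelial gate and 0.0887 CPM in the macrophage gate.

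Inhba had 145 CPM in activated and 9.19 CPM in other gated fibroblasts, 5.50 CPM in the remaining cells, 2.44 CPM in the macrophage gate and 2.25 CPM in the endothelial gate. The last 2 levels had overlapping intervals (2.28 to 2.60 and 1.66 to 2.97). Ereg had 2.39 CPM in the remaining cells, 1.05 CPM in the endothelial gate and 0.382 CPM in the macrophage gate. Fosl1 had 4.20 CPM in other gated fibroblasts, 4.14 CPM in the remaining cells and 3.67 CPM in the endothelial gate, whose intervals overlap, and 1.47 CPM in the macrophage gate.

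Binding partners lay in other classes as well. Csf1r, the receptor for Csf1, had 19.1 CPM in activated fibroblasts and 839 CPM in the macrophage gate, and Ccr2, the receptor for Ccl2, had 4.5 and 72.4 CPM in these. The Ccr2 level was highest in the remaining cells, at 161 CPM. Plxnc1, a receptor for Sema7a, had 1.72 CPM in activated fibroblasts and 32.7 CPM in the macrophage gate. Itga1, an integrin chain that partners Itgb1, was at 653 CPM in the endothelial gate against 18.4 CPM in activated fibroblasts. Egfr was at 249 and 241 CPM in activated and other gated fibroblasts, and at 4.42 CPM in the macrophage gate and 10.3 CPM in the endothelial gate. Il1rl1, the receptor for IL-33, had 74.7 CPM in activated and 9.28 CPM in other gated fibroblasts but was not called, since its log2 ratio was 0.59 with A0311. It ranged from 20.5 to 172 CPM between hashtags in activated fibroblasts, and 1 cell held 30.9% of its counts. Osmr, the oncostatin M receptor, had 148 CPM in activated and 139.7 CPM in other gated fibroblasts.

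**Figure D4:**
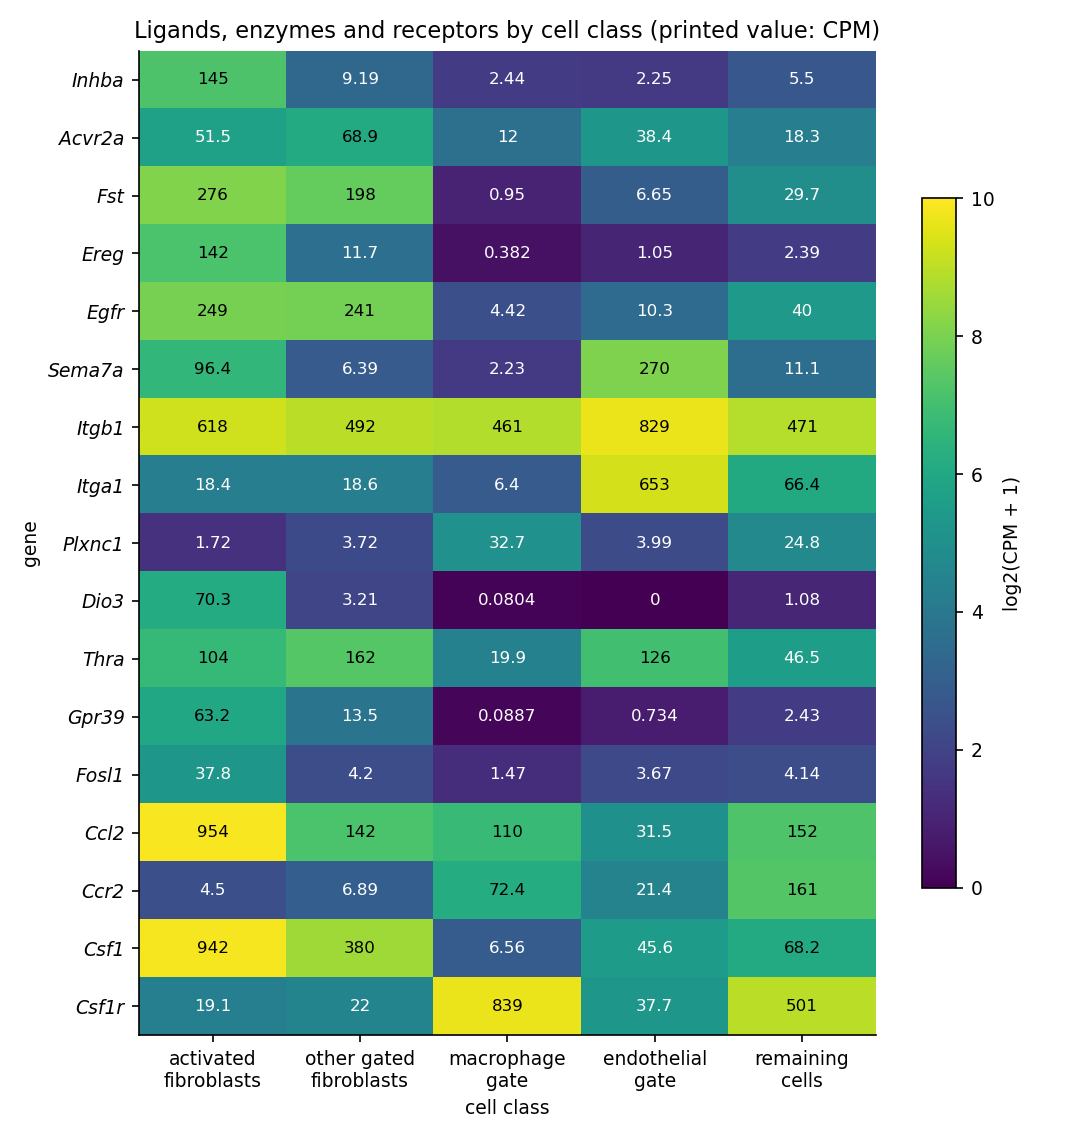
Level of genes of the rule, their binding partners, and Ccl2 and Csf1 with their receptors in 5 cell classes, activated fibroblasts first. Colour is log2 of CPM plus 1 and each printed value is CPM, as for Sema7a at 270.5 CPM (printed as 270) in the endothelial gate, 96.4 CPM in activated and 6.39 CPM in other gated fibroblasts; genes differ in length, so colours compare classes within a row.

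Levels of genes outside the rule were also read by the number of the 6 genes counted, on both sides of the threshold. Called genes were chosen by the contrast across the threshold, so their direction across it is a description. Timp1 had 402, 670.1, 846, 2334 and 2761 CPM in gated fibroblasts with 0, 1, 2, 3 and 4 to 6 of the genes. Itga5 had 96.7, 121, 187, 366 and 682 CPM, and Tnfrsf12a 62.3, 88.2, 177, 226 and 557 CPM. Each of these 3 genes had a larger value at each step, while Fmo2, at 45, 44.8, 62.8, 9.64 and 3.24 CPM, did not move in 1 direction. Ccl2 was at 94.3, 157, 342, 1041 and 805 CPM so its level was not largest in the cells with most of the genes, although the thinned share of cells with a count was 43.8% at 3 genes and 53.1% at 4 to 6. Csf1, by contrast, was at 354, 379, 513, 662 and 1423 CPM.

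With every cell thinned to 10000 counts, the share of cells with a count of Tnfrsf12a was 28.5, 36.7, 54.5, 72.5 and 87.8% over the same steps, and that of Hmga1 13.7, 16.5, 27.3, 42.5 and 73.5%. Slco2a1 was counted in 22.3, 27.2, 33.0, 55.0 and 79.6%. Galnt15 took the opposite course, with 44.5, 41.9, 27.3, 15.0 and 14.3%. Iigp1 was counted in 19.5, 19.5, 18.9, 5.0 and 2.04%, so its share was level up to 2 genes and lower from 3 genes on. Fos was counted in 97.5 to 98.5% of cells at every step, while its level was 5341, 4999.8, 4653, 4055 and 3229.8 CPM.

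**Figure D5:**
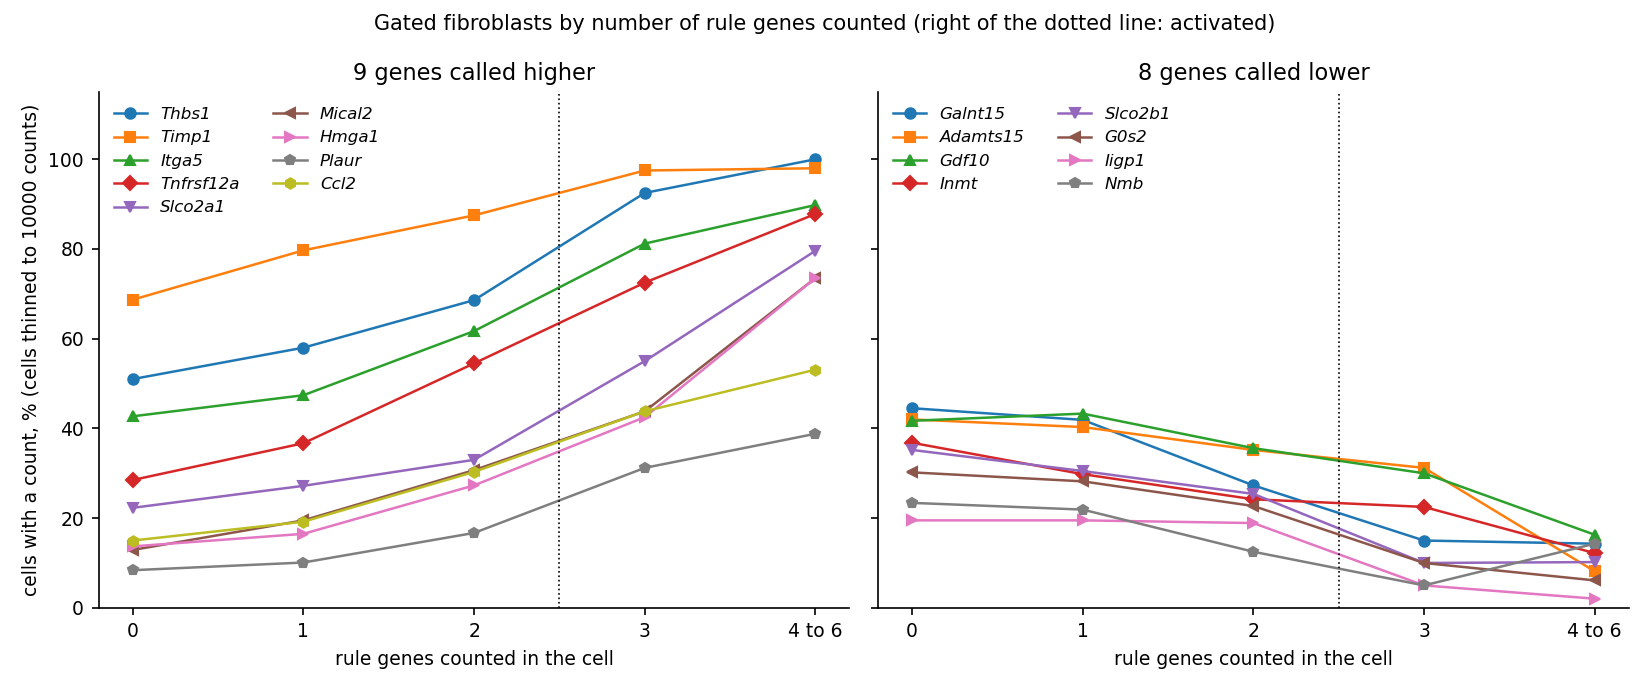
Share of gated fibroblasts with a count of each gene, after thinning every cell to 10000 counts, by how many of the 6 genes of the rule the unthinned cell had; cells right of the dotted line are the activated fibroblasts. Shares of the 9 genes called higher (left) end above where they began, as for Slco2a1 (22.3% at 0 genes, 79.6% at 4 to 6), and shares of the 8 called lower (right) end below where they began, with Nmb at its lowest at 3 genes. These genes were called on the contrast across the dotted line, so the direction of their shares across it is a description.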

How the data were processed

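Per the file headers, the authors' deposited transcript table gives counts as whole numbers for 15741 cells and 30084 genes, with a hashtag or the word doublet in each cell name, and a second deposited table holds tag counts of 15 hashtags in 758098 barcodes, among them all 15741 cells. The 11 hashtags that no cell name carries, with 5294 tag counts in all, were not used. The submitters' processing notes name R 3.6.3 and R 4.1.2, Bowtie2 2.4.2, cutadapt 3.4 and the build GRCm38, without roles. The 367 cells named doublets were left out, and no doublet caller was run. Counts were summed per group and hashtag with numpy 2.4.6, scipy 1.17.1 and pandas 2.3.3 (Python 3.11.15), scaled to CPM, and compared as log2 ratios with a pseudocount of 1, which understates the ratio of low genes. With 1 transcript library no test is possible, and the p-values and standard errors of a replicated design have no counterpart here. Intervals are 95% exact Poisson or Clopper-Pearson and cover counting error only. The macrophage gate needed Cd68, C1qa and C1qb at 20 or more per 10000 counts, with Pdgfra not counted and Dcn and Lum under 20 per 10000. Thinning drew 10000 counts per cell without replacement. The size rule was tested on simulated Poisson sums with set changes. These had no variation between cells and no choice of members by genes, so they do not measure how firm the calls are.

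The members, the gene lists and the rules were chosen with earlier results of these data known. The genes named are the 6 of the rule, from each list up to 3 called genes with the largest ratios and the uncalled gene with the highest CPM, and over all genes the 12 largest positive and 8 largest negative called ratios. The last 2 needed at least 20 CPM and a count in at least 25% of cells of the higher group, and left out symbols of predicted genes. Other genes named as binding partners, list members, stress or marker genes were chosen after their values were seen. A few genes that this rule names are not reported here. Symbols of 28967 genes were found in GENCODE vM21, which gave coordinates and overlaps, and RefSeq gave promoters. The alternatives changed the number of genes needed, depth, hashtag assignment, cell filter, macrophage limit, pseudocount, CPM minimum, averaging, scaling and hashtags, with 3 more chosen after seeing the data.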

Additional observations from a re-analysis of the deposited data

Results flagged for a closer look

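Among the 367 cells that the authors named doublets, which no comparison used, 281 met the fibroblast gate and 10 also had counts of at least 3 of the 6 genes. They are noted because cells that meet the rule lay outside the main measurement, where 129 of 3293 gated fibroblasts met it (3.92%). No genes were compared in the cells named doublets.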

How the results depend on the processing

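No paired analysis was possible because the pool has 1 transcript library, and its hashtags pair no samples across groups. Of 102 values of counts and shares under the alternatives, 62 stayed close to the main ones: 129 cells, 3.92% of gated fibroblasts, 79 genes higher, 81 lower, and 13 and 3 listed genes. The limit for a close count was wide, since 111 genes higher in place of 79 and 120 lower in place of 81 still counted as close. A share was close within 3.28 to 4.64%. Some of the 62 could not move, since the filter on genes and mitochondrial counts removed no gated fibroblast. Needing 2 genes gave 395 cells, 12%, 34 higher, 4 lower, and 8 and 0 listed genes. Needing 4 gave 49 cells, 1.49%, 313 higher, 645 lower, and 25 and 25 listed genes, with the condition on 2 hashtags only. The rule applied to thinned cells gave 44 cells and 1.47%. With the main members, thinned counts gave 138 lower and 5 listed lower, and cells of 20000 to 60000 counts 142 and 7. Single-hashtag cells by tag counts were 21, or 3.22% of their gate, and with no hashtag of 10 cells the hashtag condition fell away, which gave 679 higher, 1348 lower, and 38 and 36 listed genes. Macrophage genes under 2 per 10000 counts gave 5 listed lower, a pseudocount of 5 CPM gave 52 higher and 29 lower, and a minimum of 20 CPM gave 34 lower. Leaving out 1 hashtag, whose condition goes with it, gave 98 to 111 higher, 119 to 158 lower and 4 to 9 listed lower. Of the alternatives chosen after seeing the data, leaving out hashtag multiplets gave 69 cells and 48 higher, and not using Gpr39 gave 83 cells, 2.52%, 137 lower and 6 listed lower. Needing 2 genes used more activated cells and all 4 hashtags. The other settings that changed the cells or the condition used fewer activated cells or hashtags. The cause of the changes was not tested.

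The 79 higher genes had a ratio above 0 under all 19 settings for genes except single-hashtag cells, where 77 did. The 81 lower genes stayed below 0 except with 2 genes needed, where 76 did. With cells of 20000 to 60000 counts, 77 and 81 of them kept a size of at least 1 in the pool, and 51 and 40 were still called. With thinned counts 56 and 45 were still called. Of 1064 values of the 56 named genes under alternatives, 1007 stayed as they were, called or uncalled, 56 lost a call, 1 gained it (Socs3) and 0 reversed. The 1007 include values of uncalled genes, which had no call to keep. The 6 genes of the rule define the groups, and the filter on genes and mitochondrial counts removed no gated fibroblast. A CPM minimum changes no ratio. Many of these values were therefore bound to stay, and their number does not measure how firm the calls are. Srxn1 lost its call under 6 settings and Gdf10 under 7.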

Other observations

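3 gene lists were drawn up once the values of called genes were known, so their counts are a description only, beside 0.691% of all tested genes called higher and 0.709% called lower. Of 25 interferon-induced genes tested, 9 were lower in activated fibroblasts and 0 higher, all 25 had a ratio below 0, and the median log2 ratio was -1.30. Their summed level was 1307 CPM in activated (1278 to 1342 between hashtags) and 1854 CPM in other gated fibroblasts (1757 to 1951). Irf7, a transcription factor of the interferon response, had 4.77 CPM in activated and 18.8 CPM in other gated fibroblasts, and Ifit3, an antiviral effector, had 1.46 and 13 CPM. After thinning, Irf7 was counted in 3.88% of activated and 10.7% of other gated fibroblasts. Ifitm3, a restriction factor of viral entry, had 1023 and 1249 CPM and was not called.

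Of 28 actin and focal adhesion genes tested, Actn1, Vcl, Tagln, Mical2 and Itga5 were higher and 0 lower, 27 had a ratio above 0, and the median was 0.64. Their sum was 13047 CPM in activated (12111 to 13591 between hashtags) and 7784 CPM in other gated fibroblasts (7415 to 8376). Vcl, which links integrins to actin, had 188 CPM in activated and 69.4 CPM in other gated fibroblasts. Of 6 MHC class II genes, H2-Ab1, H2-Eb1 and Cd74 were lower, with a sum of 85 CPM in activated and 224 CPM in other gated fibroblasts. Cd74 was counted in 3.88% of activated and 4.05% of other gated fibroblasts, so few cells carried these counts in either group.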
